A study of Homo sapiens with 9 samples.

Results

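ERBB4 is one of the 4 receptor tyrosine kinases of the epidermal growth factor receptor family. Its transcript and those of its relatives ERBB2 and ERBB3 were followed in lymphoma cells with an shRNA against KDM1A, the gene for the histone demethylase LSD1. The receptors were taken by their symbols from a table of 26816 genes, which held a row for 3 of the 4. EGFR was not analysed here. ERBB4 was chosen by its log2 fold change on the mean of both LSD1 shRNAs in these same libraries, where it had risen, so its values against the control are given as a description with no test. ERBB2 and ERBB3 were taken as its relatives and are tested. All 3 passed the filter on low counts.

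Polyadenylated RNA was sequenced from OCI-Ly1, a human cell line from a diffuse large B-cell lymphoma with germinal-centre features. The groups were cells with the LSD1 shRNA sh68, cells with the LSD1 shRNA sh72 and cells with a scrambled control shRNA (shSCR), with 3 biological replicates each. Each shRNA was carried by the pLKO1 vector, and cells of all 3 groups were selected with puromycin. The names sh68 and sh72 follow the columns of the count table. The sample titles give numbers in place of these names, and no label ties a number to a clone. Nothing in the labels says that replicates came from separate transductions, so p-values measure the spread between these libraries.

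The ERBB receptors sit in the cell membrane and act in pairs. Ligand binding brings receptors together, their kinases phosphorylate each other's tails, and adaptor proteins that bind the tails pass the signal to the RAS and ERK cascade, to PI3 kinase and to STAT factors. ERBB2 has no known ligand and serves as a partner for the others, ERBB3 has a weak kinase and recruits PI3 kinase, and ERBB4 binds neuregulins and can be cut at the membrane to release a fragment that enters the nucleus. The family is best known from epithelia, heart and nervous tissue rather than from B cells.

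Libraries held between 29506767 and 35270849 counted reads, and 15725 genes were tested. KDM1A, the target of both shRNAs, had 24.4 ± 1.26 counts per 1000000 reads (CPM) in sh68 cells and 20.9 ± 1.82 CPM in sh72 cells, against 121.2 ± 1.44 CPM in shSCR cells (SD, n = 3 each). That left 20.2% of the control level with sh68 and 17.2% with sh72. KDM1B, which encodes the related demethylase LSD2, did not pass on the mean of both shRNAs (log2 fold change -0.03 ± 0.0381 SE, adjusted p = 0.538 by edgeR's quasi-likelihood test with Benjamini-Hochberg adjustment). Among all tested genes 52.3% passed an adjusted p of 0.05 on that mean, with 24.9% higher and 27.5% lower, so a changed gene was about as frequent as one that was not called.

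ERBB4 lies on the minus strand of chromosome 2 (GRCh38.p14, chr2:211375717-212538802). It had 7.83, 6.32 and 8.23 CPM in the sh68 libraries and 7.14, 6.63 and 7.28 CPM in the sh72 libraries, against 0.897, 0.623 and 0.351 CPM in the shSCR libraries. These levels stood on 255, 222 and 290 reads with sh68 and on 245, 210 and 222 reads with sh72, against 29, 18 and 11 reads with shSCR. All 6 LSD1 shRNA libraries lay far above all 3 controls, and the controls held few reads of the gene.

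The group means were 7.46 ± 1.01 CPM with sh68 and 7.02 ± 0.341 CPM with sh72, against 0.624 ± 0.273 CPM with shSCR (SD, n = 3 each). The log2 fold change was 3.52 ± 0.175 (SE) on the mean of both shRNAs, an 11.5-fold difference. It was 3.57 ± 0.188 with sh68 and 3.48 ± 0.191 with sh72. These contrasts share the control libraries. The rise of ERBB4 ranked 25th among all 15725 log2 fold changes on the mean. Of the 3162 tested genes that averaged under 1 CPM in shSCR cells, 40 were at least 8-fold higher on the mean, ERBB4 among them.

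The difference between the shRNAs was not used to choose ERBB4 and could be tested. ERBB4 was -0.09 ± 0.12 (log2, SE) in sh72 relative to sh68 cells, with an approximate 95% interval of -0.322 to 0.147 (adjusted p = 0.56, edgeR quasi-likelihood). The sh72 and sh68 libraries overlapped. In the same test 56.2% of all genes differed between the shRNAs, 27.2% higher and 29% lower with sh72. RNA was measured in bulk, where fewer cells with the transcript and less RNA per cell cannot be told apart.

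**Figure D1:**
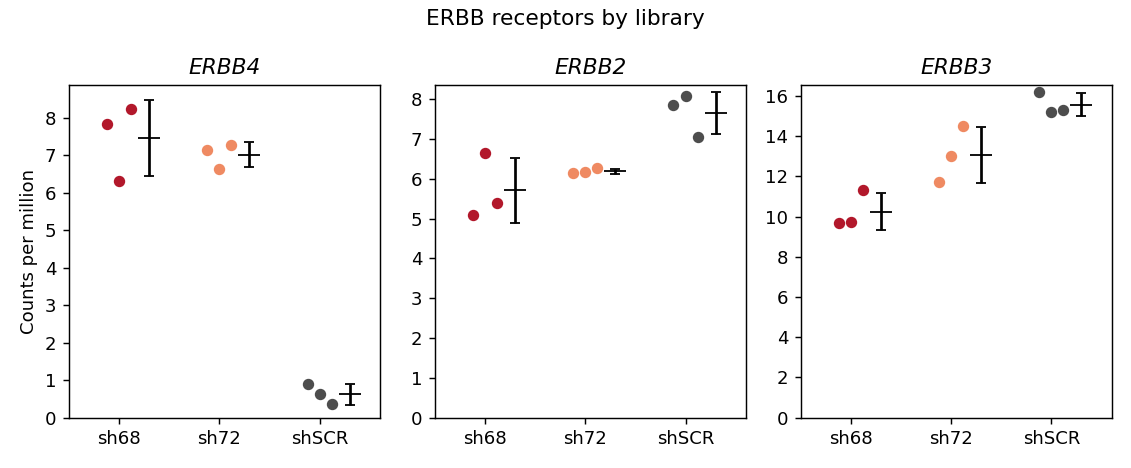
Level of ERBB4, ERBB2 and ERBB3 in CPM (vertical axis, from 0, a scale per panel) in each library of sh68, sh72 and shSCR cells. Points are libraries, and the bars beside them are the mean ± SD of 3 libraries. ERBB4 is between 6.32 and 8.23 CPM with either LSD1 shRNA and under 1 CPM with shSCR, while ERBB2 and ERBB3 lie below their controls.

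ERBB2 and ERBB3 moved the other way, by much less. ERBB2 (chr17:39688094-39728658) had 5.1, 6.64 and 5.39 CPM in the sh68 libraries and 6.15, 6.16 and 6.26 CPM in the sh72 libraries, against 7.85, 8.07 and 7.05 CPM in the shSCR libraries. All 6 LSD1 shRNA libraries lay below all 3 controls. On the mean ERBB2 fell by 0.36 ± 0.0896 on the log2 scale, to 77.8% of the control level (adjusted p = 0.00154, edgeR quasi-likelihood). It fell by 0.42 ± 0.104 with sh68 (adjusted p = 0.00146) and by 0.31 ± 0.104 with sh72 (adjusted p = 0.017). The shRNAs were not told apart at ERBB2, with a difference of 0.11 ± 0.107 between sh72 and sh68 cells and an approximate 95% interval of -0.0949 to 0.324 (adjusted p = 0.38).

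ERBB3 (chr12:56080108-56103505) had 9.7, 9.74 and 11.3 CPM in the sh68 libraries and 11.7, 13.0 and 14.5 CPM in the sh72 libraries, against 16.2, 15.2 and 15.3 CPM in the shSCR libraries. The 3 groups did not overlap, with sh68 lowest and shSCR highest. ERBB3 fell by 0.43 ± 0.071 on the mean, to 74.2% of the control level (adjusted p = 1.97e-05, edgeR quasi-likelihood). The fall was 0.60 ± 0.0837 with sh68 (log2 fold change -0.60, adjusted p = 1.65e-06) and 0.26 ± 0.0819 with sh72 (log2 fold change -0.26, adjusted p = 0.0111). ERBB3 was the receptor at which the shRNAs differed, by 0.345 ± 0.0851 (sh72 minus sh68, adjusted p = 0.00133).

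Both relatives thus passed on the mean, where 52.3% of all tested genes did, with sh68, where 55.5% did (27.4% higher and 28.1% lower), and with sh72, where 51% did (24.7% higher and 26.3% lower). An exact two-sided permutation test of the difference in mean log2 CPM between 6 LSD1 shRNA and 3 shSCR libraries gave p = 0.0119 for ERBB2, the smallest that 84 splits allow, and p = 0.0357 for ERBB3. The calls with sh72 rested on single libraries. That of ERBB2 ended without shSCR replicate 1 (adjusted p = 0.0712), shSCR replicate 2 (adjusted p = 0.0811) or sh72 replicate 2 (adjusted p = 0.057). That of ERBB3 ended without shSCR replicate 1 (adjusted p = 0.067) or sh72 replicate 1 (adjusted p = 0.0686). All calls of ERBB2 and ERBB3 ended when a change of at least 1.5-fold was required. Exons of ERBB2 overlap those of MIEN1 on the opposite strand over 571 bases (5.53% of its exon length) and those of PGAP3 over 194 bases (1.88%), and the strand setting of the counting is not given in the sources used here.

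Levels of different genes were compared per kilobase of exon. With the union of exons in GENCODE 29, ERBB4 had 0.573 ± 0.0773 CPM per kilobase in sh68 cells and 0.539 ± 0.0262 in sh72 cells, against 0.0479 ± 0.021 in shSCR cells (SD, n = 3). ERBB2 had 0.553 ± 0.0792 CPM per kilobase in sh68 cells and 0.6 ± 0.00609 in sh72 cells, against 0.742 ± 0.0522 in shSCR cells. ERBB3 had 1.13 ± 0.103 CPM per kilobase in sh68 cells and 1.45 ± 0.154 in sh72 cells, against 1.72 ± 0.0603 in shSCR cells. ERBB3 was therefore the highest of the 3 receptors in every group on this scale. In shSCR cells the order was ERBB3, ERBB2, ERBB4. In sh68 cells ERBB4 and ERBB2 did not differ beyond their spread.

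In sh72 cells ERBB2 lay above ERBB4 with either length, while in sh68 cells the 2 receptors were apart only with a shorter length. Per kilobase of the longest coding transcript, ERBB4 had 0.615 ± 0.0829 CPM in sh68 cells and 0.578 ± 0.0281 in sh72 cells, against 0.0514 ± 0.0225 in shSCR cells. ERBB2 then had 1.19 ± 0.171 CPM per kilobase in sh68 cells and 1.29 ± 0.0131 in sh72 cells, against 1.6 ± 0.112 in shSCR cells. ERBB2 stood above ERBB4 in all 3 groups on that scale, and ERBB3 stayed the highest with 1.73 ± 0.157 CPM per kilobase in sh68 cells and 2.21 ± 0.235 in sh72 cells, against 2.63 ± 0.092 in shSCR cells.

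The genes that encode ligands of the receptors were next. Of 11 ligand genes listed, 10 had a row and 4 passed the filter. On the mean 2 rose, 1 fell and 1 did not pass (75.0% called, against 52.3% of all genes). The median log2 fold change of these 4 genes was 0.451, against -0.015 over all genes tested. Those that rose were HBEGF and NRG3, whose products bind ERBB4. HBEGF encodes heparin-binding EGF-like growth factor, which binds EGFR and ERBB4, and NRG3 encodes a neuregulin that binds ERBB4.

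The windows around the starts of ERBB4, HBEGF and NRG3 are shown because these receptor and ligand genes were higher together. They come from RefSeq on GRCh38.p14 and run from 250 bases before to 50 bases after the start, on the gene's strand. Capitals mark AATC or GATT, the core letters of sites of GFI1, a repressor that recruits LSD1. The windows lie at chr2:212538753-212539052, chr5:140346554-140346853 and chr10:81874944-81875243 in the order printed, with HBEGF on the minus and NRG3 on the plus strand. NRG3 has a further start in RefSeq whose window is not shown.
ERBB4: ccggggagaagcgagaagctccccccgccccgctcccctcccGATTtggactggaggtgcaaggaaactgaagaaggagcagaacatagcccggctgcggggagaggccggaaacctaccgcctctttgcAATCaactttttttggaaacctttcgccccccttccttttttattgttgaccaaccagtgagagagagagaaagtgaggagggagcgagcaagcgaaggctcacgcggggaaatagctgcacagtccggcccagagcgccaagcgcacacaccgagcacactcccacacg
HBEGF: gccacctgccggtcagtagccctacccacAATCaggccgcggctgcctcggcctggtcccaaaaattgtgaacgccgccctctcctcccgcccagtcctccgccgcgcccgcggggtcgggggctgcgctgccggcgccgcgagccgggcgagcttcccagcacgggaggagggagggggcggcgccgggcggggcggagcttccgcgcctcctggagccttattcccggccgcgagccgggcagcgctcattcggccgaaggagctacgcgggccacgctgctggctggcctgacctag
NRG3: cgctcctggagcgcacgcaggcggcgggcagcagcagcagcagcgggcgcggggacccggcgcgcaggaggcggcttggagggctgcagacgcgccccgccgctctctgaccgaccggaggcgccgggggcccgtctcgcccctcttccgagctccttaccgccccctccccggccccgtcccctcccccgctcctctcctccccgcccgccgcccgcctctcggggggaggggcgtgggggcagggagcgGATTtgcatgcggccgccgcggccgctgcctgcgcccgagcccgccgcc

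Each of these windows holds the GFI1 core, searched on both strands, but so do 69.0% of all 35116 promoter windows of this length, and so does the window of ERBB2, a receptor that fell. TTCCTAGAA, a form of the site of BCL6, was in none of the 3 windows on either strand, and in 0.373% of all windows. GC content was 59.0% for ERBB4, near the middle of all windows, 75.0% for HBEGF and 81.0% for NRG3, against a median of 58.7%. A match describes letters and shows no binding.

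HBEGF (chr5:140332843-140346603) had 2.27, 1.31 and 1.65 CPM in the sh68 libraries and 1.34, 1.07 and 0.886 CPM in the sh72 libraries, against 0.526, 0.381 and 0.287 CPM in the shSCR libraries. All 6 LSD1 shRNA libraries lay above the controls, while the libraries of the 2 shRNAs overlapped. The log2 fold change was 1.78 ± 0.269 on the mean (3.45-fold, adjusted p = 5.75e-06, edgeR quasi-likelihood), 2.11 ± 0.285 with sh68 and 1.46 ± 0.311 with sh72. The difference of sh72 from sh68 was -0.65 ± 0.23 (adjusted p = 0.0198). That call ended without sh68 replicate 1 (adjusted p = 0.172), sh72 replicate 2 (adjusted p = 0.0605) or sh72 replicate 3 (adjusted p = 0.0918), and under DESeq2 (adjusted p = 0.0524).

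NRG3 (chr10:81875194-82987179) had 49.1, 44.0 and 48.3 CPM in the sh68 libraries and 28.6, 25.3 and 27.1 CPM in the sh72 libraries, against 20.0, 19.9 and 21.5 CPM in the shSCR libraries. The 3 groups were separate, sh68 highest. The log2 fold change was 1.20 ± 0.0598 with sh68 (2.3-fold, adjusted p = 3.47e-14, edgeR quasi-likelihood) and 0.40 ± 0.0627 with sh72 (1.32-fold, adjusted p = 1.02e-05). The shRNAs differed by -0.80 ± 0.0577 (sh72 minus sh68, adjusted p = 2.97e-11). At the receptor ERBB4 no such difference was detected, with the interval given above.

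NRG4, another neuregulin that binds ERBB4, had 9.95, 11.6 and 10.9 CPM in the sh68 libraries and 10.7, 12.6 and 11.8 CPM in the sh72 libraries, against 11.4, 13.5 and 15.1 CPM in the shSCR libraries. The groups overlapped. On the mean its log2 fold change was -0.24 ± 0.0801 (adjusted p = 0.0142, edgeR quasi-likelihood), a call that ended without shSCR replicate 2 (adjusted p = 0.0597) or shSCR replicate 3 (adjusted p = 0.215). The call of NRG4 also ended with the LSD1 shRNA libraries as 1 group (adjusted p = 0.125, edgeR quasi-likelihood). Exons of NRG4 overlap those of FBXO22 on the opposite strand over 38.1% of their length, so its reads cannot be assigned with certainty. AREG, the gene of the EGFR ligand amphiregulin, had a log2 fold change of 0.10 ± 0.27 (adjusted p = 0.777).

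The other 6 ligand genes with a row stayed under the filter. EPGN had 4, 2 and 2 reads in the sh68 libraries and 11, 4 and 6 reads in the sh72 libraries, against 3, 1 and 1 reads in the shSCR libraries. TGFA, EGF, BTC, NRG1 and NRG2 had at most 6 reads in any library. At this depth no difference could be shown for them. EREG was not analysed here.

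**Figure D2:**
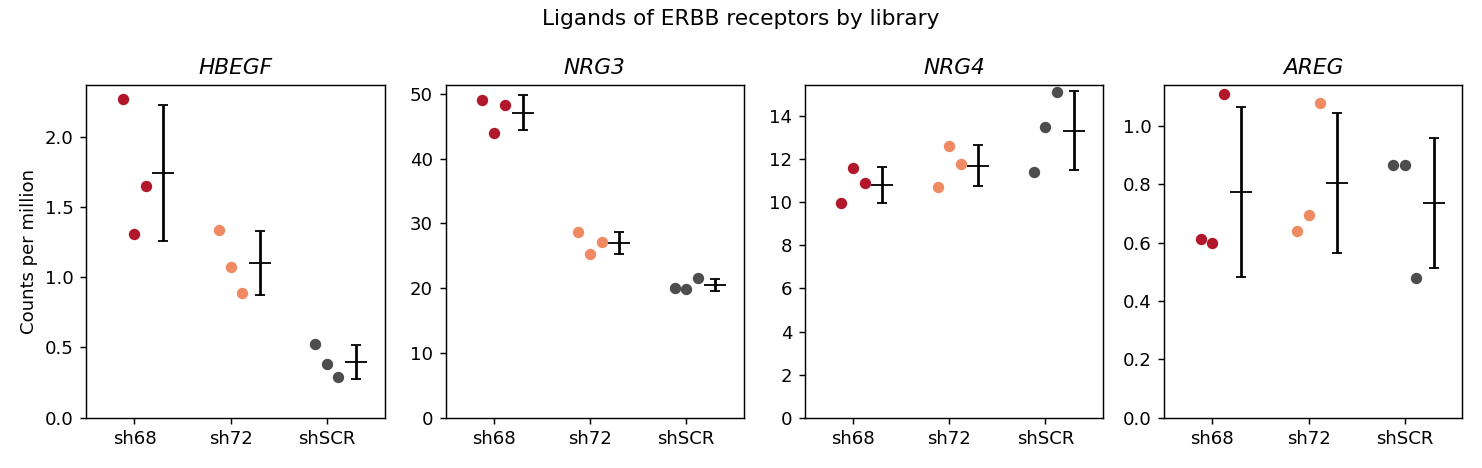
Level of the 4 ligand genes that passed the filter, in CPM (vertical axis, from 0, a scale per panel), in each library of sh68, sh72 and shSCR cells. Points are libraries and bars the mean ± SD of 3. HBEGF and NRG3 lie above the controls with each LSD1 shRNA, NRG3 more so with sh68, and NRG4 and AREG overlap their controls.

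Proteins that cut ERBB4 or were listed with those that do, and partners of the released fragment, formed a list of 17 genes, all tested. On the mean 2 rose, 10 fell and 5 did not pass (70.6%, against 52.3% of all genes), with a median log2 fold change of -0.172. With the LSD1 shRNA libraries as 1 group, 6 passed, where 3581 of all 15725 genes did. PSEN2, which encodes a catalytic presenilin of gamma-secretase, had 0.495 ± 0.156 CPM with sh68 and 0.52 ± 0.106 CPM with sh72, against 1.68 ± 0.452 CPM with shSCR. It fell by 1.72 ± 0.227 on the log2 scale (adjusted p = 9.14e-07, edgeR quasi-likelihood). APH1A, a gamma-secretase subunit of far higher count, fell by 0.37 ± 0.0344 (adjusted p = 4.26e-09). Among 5 genes of gamma-secretase, a group chosen after its values were seen, 4 fell with each shRNA and on the mean. APH1B fell by 0.33 ± 0.0435 and PSENEN by 0.27 ± 0.0494 on the mean, both subunits of the complex, and NCSTN had -0.07 ± 0.0368 (adjusted p = 0.117).

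Of the sheddases that make the first cut, chosen after their values were seen, ADAM17 rose by 0.18 ± 0.0349 on the mean (adjusted p = 0.000154, edgeR quasi-likelihood), with all 6 LSD1 shRNA libraries above the controls. ADAM10 moved in opposite directions, with 143.5 ± 2.65 CPM in sh68 cells and 115.0 ± 2.74 CPM in sh72 cells, against 128.3 ± 3.34 CPM in shSCR cells. BACE1, a protease on the same list, is not put forward here as one that cuts ERBB4. BACE1 fell by 0.40 with sh68 and had -0.11 with sh72, which did not pass (adjusted p = 0.319, edgeR quasi-likelihood). The shRNAs differed at BACE1 (0.29, sh72 minus sh68, adjusted p = 0.00884). CBFA2T3, a corepressor bound by the ERBB4 fragment, fell by 0.76 with sh68 and by 2.43 with sh72. DLG4, a scaffold protein that binds the tail of ERBB4, had a log2 fold change of 0.03 with sh68, which did not pass, and fell by 1.09 with sh72.

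**Figure D3:**
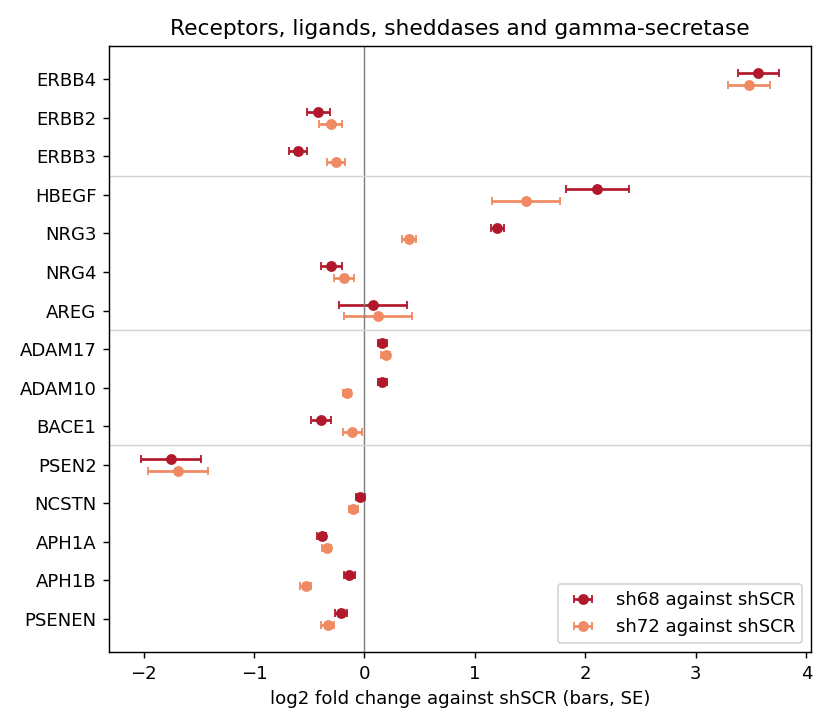
Log2 fold change (horizontal axis, bars ± SE) for sh68 and for sh72 against shSCR, from 1 fit to 9 libraries. Shown are the receptors, the tested ligands, and proteases and gamma-secretase subunits of the cleavage list. ERBB4 stands at 3.57 with sh68 and 3.48 with sh72, HBEGF at 2.11 with sh68 and 1.46 with sh72, and PSEN2, APH1A, APH1B and PSENEN lie below 0 with each shRNA.

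Further along the pathway, the adaptors and first kinases held 29 tested genes of 33. On the mean 13 rose, 4 fell and 12 did not pass, with a median log2 fold change of 0.139 (58.6% called, against 52.3% of all genes). STAT5A, a transcription factor that the ERBB4 fragment can accompany to the nucleus, had 8.52 ± 0.366 CPM in sh68 cells and 3.8 ± 0.113 CPM in sh72 cells, against 1.72 ± 0.13 CPM in shSCR cells. It rose by 1.73 ± 0.114 on the mean (adjusted p = 8.4e-12, edgeR quasi-likelihood) and the 3 groups did not overlap. GAB1, an adaptor for PI3 kinase and SHP2, rose with sh68 (log2 fold change 1.62) and had 0.08 with sh72, which did not pass. VAV3, an exchange factor for small GTPases, rose by 1.13 with sh68 and 0.33 with sh72, and NCK2, an SH2 and SH3 adaptor, rose by 0.86 with sh68 and 0.39 with sh72. The LSD1 shRNA libraries were also fitted as 1 group, which widens their spread by the difference between the shRNAs. In that fit 7 of the 29 adaptors and first kinases passed on the mean, against 17 here. Of all 15725 genes, 3581 passed in it.

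The RAS and ERK cascade was split. Of 13 tested genes of 14, 2 rose, 5 fell and 6 did not pass, with a median of -0.100 (53.8% called, against 52.3% of all genes). With the LSD1 shRNA libraries as 1 group, 2 passed, where 3581 of all 15725 genes did. KSR1, the scaffold of the cascade, had 1.65 ± 0.375 CPM in sh68 cells and 1.41 ± 0.183 CPM in sh72 cells, against 3.27 ± 0.409 CPM in shSCR cells. It fell by 1.10 ± 0.148 on the mean (adjusted p = 1.14e-06, edgeR quasi-likelihood). MAP2K1, the kinase MEK1, rose with each shRNA (0.36 with sh68 and 0.53 with sh72). MAPK3, the kinase ERK1, had a log2 fold change of -0.10 with sh68, which did not pass, and -0.59 with sh72.

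Genes of receptor turnover and inhibition gave 5 that rose, 9 that fell and 9 that did not pass, of 23 tested of 26 listed, with a median of -0.059 (60.9% called, against 52.3% of all genes). With each shRNA alone 6 of the 23 passed in the same direction and 2 in opposite directions. The share of all genes that did either was not computed. The LSD1 shRNA libraries as 1 group left 5 calls among the 23, where 3581 of all 15725 genes passed. A minimum of 1.5-fold left 898 of all genes and none of the 23 in edgeR's test. For the 23 this held also at an unadjusted p. LRIG1, an inhibitor that promotes ERBB degradation, had 11.1 ± 1.07 CPM in sh68 cells and 6.24 ± 0.27 CPM in sh72 cells, against 5.41 ± 0.203 CPM in shSCR cells. The rise passed with sh68 (1.04) and did not with sh72 (0.21). CBLB, a ubiquitin ligase for receptors, showed the same split, with 0.91 for sh68 and 0.08 for sh72. PTPRJ, a receptor phosphatase, fell by 0.32 with sh68 and 0.67 with sh72 (log2 fold changes -0.32 and -0.67). TNK2, a kinase that takes part in EGFR turnover, fell by 0.35 with sh68 and 0.42 with sh72 (log2 fold changes -0.35 and -0.42).

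Other receptor tyrosine kinases served as a comparison for ERBB4. Of 54 listed, 43 had a row and 19 were tested, and on the mean 6 rose, 1 fell and 12 did not pass, with a median of 0.140 (36.8% called, against 52.3% of all genes). The shRNAs taken singly gave more calls, 14 with sh68 (73.7%, against 55.5% of all genes) and 11 with sh72 (57.9%, against 51% of all genes). Of the genes called with both, 5 moved the same way and 6 in opposite ways. The matching shares over all genes were not computed. PTK7, a pseudokinase receptor named after its values were seen, rose by 1.38 with sh68 and had a log2 fold change of -0.99 with sh72. MST1R, the receptor of macrophage-stimulating protein and likewise named, had -0.37 with sh68 and 0.62 with sh72, both called. The gene that fell on the mean was LMTK2, also named after its values were seen, with -0.27 ± 0.038. MET, the receptor of hepatocyte growth factor, had 59.1 ± 2.86 CPM in sh68 cells and 27.5 ± 1.82 CPM in sh72 cells, against 15.7 ± 0.697 CPM in shSCR cells, a rise of 1.36 ± 0.0558 on the mean (adjusted p = 1.36e-15, edgeR quasi-likelihood). TYRO3, a receptor of GAS6 and protein S, rose by 0.78 ± 0.104. EPHA3, an ephrin receptor, was nearly without reads in the control, where ERBB4 had 58 reads. EPHA3 had 103 reads in sh68 cells and 164 in sh72 cells, against 3 in shSCR cells. Its ratio of LSD1 shRNA to shSCR libraries was 41.3, with an exact 95% counting interval of 14.0 to 201.7. FLT3, a cytokine receptor of early blood cells, had 38 reads in sh68 cells and 7 in sh72 cells, against 1 in shSCR cells (ratio 20.9, 3.56 to 843.6). The intervals of both ratios cover counting error only, and each ratio pools the 2 shRNAs. The rise of FLT3 passed with sh68 (log2 fold change 4.67) and did not with sh72 (2.38, adjusted p = 0.0698, edgeR quasi-likelihood). FLT3 met the filter on low counts only through its sh68 libraries, and EPHA3 only through LSD1 shRNA libraries. Both were thus tested because they were high there, which limits what their calls among the 6 that rose can show.

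Markers of the labelled cell type were present, and markers of other cell types were measured beside them. The summed level of 7 B-cell markers ranged over 4289.5 to 4415.3 CPM with sh68 and 2724.9 to 2888.6 CPM with sh72, against 4296.1 to 4438.7 CPM with shSCR. All 6 T-cell markers averaged under 1 CPM in every group, as did CD14, CSF1R, LYZ and ITGAM of the monocytes. The T-cell list summed to 0.712 to 1.53 CPM with sh68 and 1.22 to 1.67 CPM with sh72, against 0.415 to 1.04 CPM with shSCR. The monocyte list summed to 0.965 to 1.35 CPM with sh68 and 0.496 to 0.623 CPM with sh72, against 0.34 to 0.45 CPM with shSCR. Both sums stayed low, and single genes in them rose on the mean, here named after their values were seen. LYZ, the lysozyme gene, had 81 reads with sh68 and 4 with sh72, against 0 with shSCR, and CD3D, a chain of the T-cell receptor complex, had 20 reads with sh68 and 29 with sh72, against 5 with shSCR. LYZ met the filter on low counts only through sh68, and its rise passed with sh68 and did not with sh72. CD3D met the filter only through LSD1 shRNA libraries. Each was thus tested because it was high there. Of 5 epithelial markers with a row, CDH1, KRT8, KRT18 and KRT19 were under 1 CPM, and the list summed to 7.52 to 8.89 CPM with sh68 and 15.6 to 16.2 CPM with sh72, against 15.2 to 18.1 CPM with shSCR. Of 6 markers of neurons and glia, 3 were under 1 CPM in every library, RBFOX3 and GFAP among them, and the list summed to 11.3 to 11.9 CPM with sh68 and 10.3 to 11.7 CPM with sh72, against 5.66 to 6.54 CPM with shSCR. Single genes carried these sums, and they are named after their values were seen. MAP2, a neuronal cytoskeletal protein, had 8.48 ± 0.244 CPM with sh68 and 8.53 ± 0.888 CPM with sh72, against 3.12 ± 0.459 CPM with shSCR, while SYP, the synaptic vesicle marker, fell by 0.53 ± 0.213 on the mean (adjusted p = 0.0386, edgeR quasi-likelihood). EPCAM, an epithelial adhesion protein, had 8.14 ± 0.73 CPM with sh68 and 15.8 ± 0.3 CPM with sh72, against 16.7 ± 1.48 CPM with shSCR. The natural killer list, in which NCAM1 and GNLY were under 1 CPM, summed to 11.1 to 12.1 CPM with sh68 and 6.41 to 6.71 CPM with sh72, against 4.05 to 4.47 CPM with shSCR. The fibroblast list, with 4 of 5 under 1 CPM, summed to 1.5 to 1.82 CPM with sh68 and 1.31 to 3.44 CPM with sh72, against 0.433 to 0.589 CPM with shSCR. The part of these lists in the result was not tested.

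Genes near ERBB4 were taken by place, whatever their values. On the side of its promoter the nearest with a row were LOC102725082 and LOC107985980, whose spans overlap, 394.1 and 397.2 kb away. LOC102725082 had a log2 fold change of 0.74 ± 0.192 on the mean and LOC107985980 one of 0.66 ± 0.197. IKZF2, the gene of the lymphoid factor Helios, lies 460.9 kb away and had 333.5 CPM in sh68 cells and 269.9 CPM in sh72 cells, against 190.8 CPM in shSCR cells. It rose by 0.65 ± 0.0341 (adjusted p = 1.33e-13, edgeR quasi-likelihood). LOC107985981, 649.6 kb away, had 1.29 ± 0.29. All 4 on this side passed on the mean with a higher level, where 24.9% of all genes did, but LOC102725082 and LOC107985980 share a locus. With sh72 alone these did not pass (0.29 for LOC102725082 and 0.27 for LOC107985980), and their LSD1 shRNA libraries overlapped the controls. On the other side LANCL1 (898.1 kb) and LANCL1-AS1 (905.4 kb), an antisense gene whose reads cannot be told from those of LANCL1 without the strand setting, did not pass (0.01 ± 0.0401 for LANCL1 and 0.11 ± 0.299 for LANCL1-AS1), and CPS1 and LOC107985978 were not tested. Among the 22396 symbols of the table that RefSeq holds, none overlaps the span of ERBB4.

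Genes whose pattern most resembled that of ERBB4 were ranked by Pearson r of log2 CPM over the 9 libraries, among 13599 genes. The 6 highest were SLC1A4 (r = 0.995), DTHD1 (0.994), AREL1 (0.993), TAF9B (0.991), DYNLL2 (0.989) and ADARB1 (0.988). The 4 most opposite were KMT5B (-0.99), CNTROB (-0.99), FAM46C (-0.989) and RALB (-0.988). SLC1A4 carries neutral amino acids, ADARB1 edits adenosine in RNA and KMT5B methylates lysine on histone H4. High values were common, with 206 genes above 0.95 and 149 below -0.95, and they rest on the step between the LSD1 shRNA and shSCR libraries. Within the 6 LSD1 shRNA libraries r of the 6 most alike genes was between 0.0534 for ADARB1 and 0.798 for TAF9B, and among the opposite genes it was -0.432 for KMT5B and 0.00552 for CNTROB. The size of the step differed, from 0.38 for SLC1A4 to 3.18 for DTHD1 (log2 fold change on the mean), against 3.52 for ERBB4. None of the 6 was among the 6 highest by Spearman's rho.

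**Figure D4:**
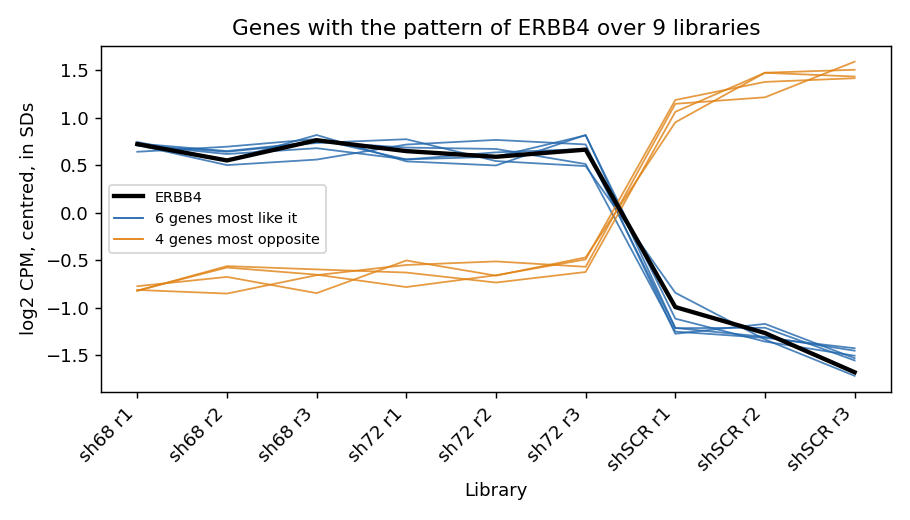
Log2 CPM, centred and divided by its SD for each gene (vertical axis), in the 9 libraries (horizontal axis, sh68, sh72, then shSCR) for ERBB4, the 6 genes most like it and the 4 most opposite to it by Pearson r. Lines join libraries to guide the eye. ERBB4 and its 6 companions are high in all 6 LSD1 shRNA libraries and low in the 3 controls, and the 4 opposite genes are the reverse.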

How the data were processed

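Values were read counts per gene, deposited by the authors without normalization. Per the submitters' processing notes, the tools were featureCounts 1.5.2, STAR 2.5.2 and CASAVA 1.8.2 on hg38; neither parameters nor annotation nor strandedness is given there. Counts were filtered by filterByExpr (minimum count 10, total 15), scaled by TMM and fitted with edgeR 4.0.16 (limma 3.58.1, R 4.3.3) with a term per group over 9 libraries; the step was tested on simulated data. Compared were sh68 and sh72 with shSCR, singly and as their mean, and sh72 with sh68, with Benjamini-Hochberg adjustment over 15725 genes and a threshold of 0.05. Log2 CPM used a prior count of 2. Approximate intervals are 1.96 SE. Members and gene lists were chosen with earlier results of these data known. Genes named were KDM1A, KDM1B, the receptors and ligands, up to 4 passing members per list with the largest change, the 4 neighbours on each side of ERBB4, and the 6 most and 4 least correlated genes; a few of these are not reported here. Alternatives were RLE scaling, library size, no filter, 1 CPM in 3 libraries, DESeq2 1.42.0, limma-voom, a robust fit, the replicate block, a 1.5-fold minimum, the LSD1 libraries as 1 group and each library left out. The lowest correlation between libraries of a group was 0.995. Exon lengths come from GENCODE 29; the longest-transcript length was added after seeing the data.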

Additional observations from a re-analysis of the deposited data

Results flagged for a closer look

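Effects of the 2 LSD1 shRNAs differed, by the test of sh72 minus sh68 itself (edgeR quasi-likelihood), at genes named above. The log2 differences (sh72 minus sh68) were 0.345 for ERBB3, -0.646 for HBEGF and -0.802 for NRG3. Among adaptors they were -1.162 for STAT5A, -1.540 for GAB1, -0.805 for VAV3 and -0.471 for NCK2. In the RAS and ERK cascade they were 0.175 for MAP2K1 and -0.489 for MAPK3. Among turnover genes they were -0.830 for LRIG1, -0.354 for PTPRJ and -0.832 for CBLB, and among partners of the ERBB4 fragment -1.667 for CBFA2T3 and -1.123 for DLG4. Other receptor tyrosine kinases gave 0.761 for EPHA3, -2.289 for FLT3, -1.103 for MET and -0.392 for TYRO3. FLT3 met the filter on low counts only through sh68. Neighbours of ERBB4 gave 0.154 for LANCL1, -0.900 for LOC102725082, -0.797 for LOC107985980 and -0.306 for IKZF2. Proteases and gamma-secretase subunits of the cleavage list gave -0.320 for ADAM10, 0.288 for BACE1 and -0.396 for APH1B. The target KDM1A itself gave -0.228 and its relative KDM1B -0.113. Genes named after their values were seen gave -2.378 for PTK7, 0.998 for MST1R, 0.954 for EPCAM, -0.881 for SYP and -4.127 for LYZ, which had few reads. LYZ also met the filter on low counts only through sh68. ERBB4 and ERBB2 were not among these genes.

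One library stood apart at LANCL1-AS1, where the highest of the 6 LSD1 shRNA libraries was separated from the next by 0.675 of the whole range, above the critical value of Dixon's test for 6 samples. Chance gives about 1 in 20 groups, and 59 genes were screened.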

How the results depend on the processing

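ERBB4 kept its direction on the mean under all alternatives, between 3.238 and 3.91 with 1 library left out. As ERBB4 was chosen on that contrast in these libraries, this is a description and not a test. With the 6 LSD1 shRNA libraries as 1 group, 3581 genes passed on the mean, and the members past the threshold were 7 adaptors, 2 genes of the RAS and ERK cascade, 5 of turnover and 6 of cleavage. In that fit the calls on the mean of NRG4, GAB1, MAPK3, LRIG1, CBLB and DLG4 ended. With a minimum of 1.5-fold, 898 genes passed on the mean, 1477 with sh68, 1085 with sh72 and 1395 between the shRNAs, and 2 adaptors, 1 gene of the RAS and ERK cascade, 0 of turnover, 2 of cleavage and 3 other receptor tyrosine kinases; of 23 turnover genes, 0 passed at an unadjusted p in edgeR's test of that minimum, while without a minimum DESeq2 gave 12 and limma-voom 14. That minimum also ended the calls of ERBB2 (-0.36 on the mean, -0.42 with sh68, -0.31 with sh72) and ERBB3 (-0.43, -0.60 and -0.26, and 0.345 between the shRNAs), of NRG3 with sh72, of HBEGF between the shRNAs, and on the mean of NRG4, GAB1, NCK2, MAP2K1, MAPK3, LRIG1, PTPRJ, CBLB, TNK2, DLG4, APH1A and TYRO3. With 1 library left out, ERBB2 with sh72 ranged from -0.353 to -0.257 and ERBB3 with sh72 from -0.320 to -0.184. AREG changed sign, from -0.128 to 0.254 on the mean, -0.267 to 0.250 with sh68, -0.121 to 0.278 with sh72 and -0.209 to 0.400 between the shRNAs. Over all results, counts of genes included, 1031 values stayed the same, 57 were weaker, 2 gained a call, 10 changed sign and 1 moved. A weaker value is a gene that lost its call or a count that shrank by a factor above 1.5. The values that changed sign were all of AREG, which did not pass.

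Residuals of same-numbered libraries had Pearson r from -0.0358 to 0.0724 over 9 pairs, so the numbers did not pair the libraries. With the replicate block 8631 genes passed on the mean, and ERBB2 and ERBB3 had -0.365 and -0.432; NRG4 with sh72 then passed (log2 fold change -0.181, adjusted p = 0.045 by edgeR). ERBB4 rests on 58 control reads, and ligand genes under the filter could not be compared.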
